A study of Mus musculus with 47 samples.

Results

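The choroid plexus genes described here are 10 genes of the epithelium that makes cerebrospinal fluid: Ttr, Folr1, Kl, Clic6, Kcnj13, Otx2, Sostdc1, Prlr, Aqp1 and Slc4a5. They were taken as a fixed list by gene symbol and Ensembl identifier, and all 10 were found among the 55416 Ensembl genes of both count tables, one for male and one for female libraries. RNA came from the brains of 3xTg mice, a model of Alzheimer's disease in which every animal, Control-fed mice included, carries human APPSwe, tauP301L and PS1M146V. Mice were fed from 6 months of age, for 9 months, with a Control diet or with 1 of 3 restricted diets, IleR low in isoleucine, LeuR low in leucine and ValR low in valine, and were 15 months old when the brain was taken. Control-fed males gave 4 libraries, IleR-fed males 3, LeuR-fed males 3 and ValR-fed males 4. Control-fed females gave 6, IleR-fed females 5, LeuR-fed females 6 and ValR-fed females 6, so 37 of the 47 labelled libraries were analysed. The other 10 labelled male libraries are not analysed here. The labels give the tissue as brain, although their extraction text names liver, and the study's methods describe a hemisphere. Each library is called by its diet and the number in its label.

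The choroid plexus is a folded sheet of epithelial cells around a core of vessels and stroma, lying inside the brain ventricles. Its cells move ions and water into the ventricle, carry folate, thyroid hormone and other solutes from blood to cerebrospinal fluid, and secrete proteins into that fluid. Because the sheet hangs free in the ventricles, it makes up a small and easily lost share of a dissected brain. In RNA from a whole piece of tissue, fewer choroid plexus cells and less of a transcript in each cell cannot be told apart.

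The total count lay between 12682687 and 25722333 in male libraries and between 10672599 and 21370973 in female libraries. The summed level of 8 liver markers did not exceed 4.59 CPM (the count of a gene scaled to a common library size) in males and 11.7 CPM in females, and Alb, the main plasma protein of liver, reached 7.49 CPM at most. The regional makeup of the pieces varied. In males the summed level of 8 cerebellum markers lay between 26.4 and 117 CPM in the Control libraries and between 322 and 4067 CPM in the restricted ones. In females 8 of 23 libraries, from all 4 diets, had more than 500 CPM of these markers. Levels are CPM after TMM normalization, which adjusts for library composition, and a prior count of 2 was added before log2 was taken.

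Within a diet and sex the levels of most of the 10 genes differed widely between libraries. Ttr (ENSMUSG00000061808), which encodes transthyretin, the carrier of thyroxine and of the retinol-binding protein in cerebrospinal fluid, spread most widely. In Control-fed males Ttr was at 2.07 CPM in library 1, 727 in 3, 2.20 in 4 and 2724 in 5. The Control group thus held both nearly empty and very rich libraries. In IleR-fed males Ttr was at 701 CPM in library 13, 1681 in 14 and 1542 in 17, and none of these 3 was empty. In LeuR-fed males Ttr was at 4463 CPM in library 19, 788 in 20 and 2.78 in 21, and in ValR-fed males at 1666 CPM in library 7, 2437 in 9, 266 in 10 and 2.30 in 12. The highest and the lowest male level, in LeuR 19 and Control 1, differed 2158-fold, on counts of 98576 and 31. At least 200 CPM of Ttr was found in 2 of 4 Control, 3 of 3 IleR, 2 of 3 LeuR and 3 of 4 ValR male libraries, and the other 4 male libraries had under 10 CPM.

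The female libraries spread as widely. In Control-fed females Ttr was at 0 CPM in library 25, 0.694 in 26, 2.00 in 27, 663 in 28, 1.68 in 29 and 60.2 in 30. The 0 in library 25 allows up to 3 counts, for counting error only. Female Control 28 was the only Control library of its sex above 200 CPM. In IleR-fed females Ttr was at 433, 1.26, 82.5, 244 and 487 CPM in libraries 38 to 42. In LeuR-fed females it was at 119, 1686, 2090, 2.53, 1.12 and 498 CPM in libraries 43 to 48, and in ValR-fed females at 3.57, 2427, 390, 0.774, 51.5 and 1541 CPM in libraries 31 to 36. At least 200 CPM was found in 1 of 6 Control, 3 of 5 IleR, 3 of 6 LeuR and 3 of 6 ValR female libraries. Of the 23 female libraries 9 had under 10 CPM and 4 lay between both limits, which were chosen after the values were seen.

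**Figure D1:**
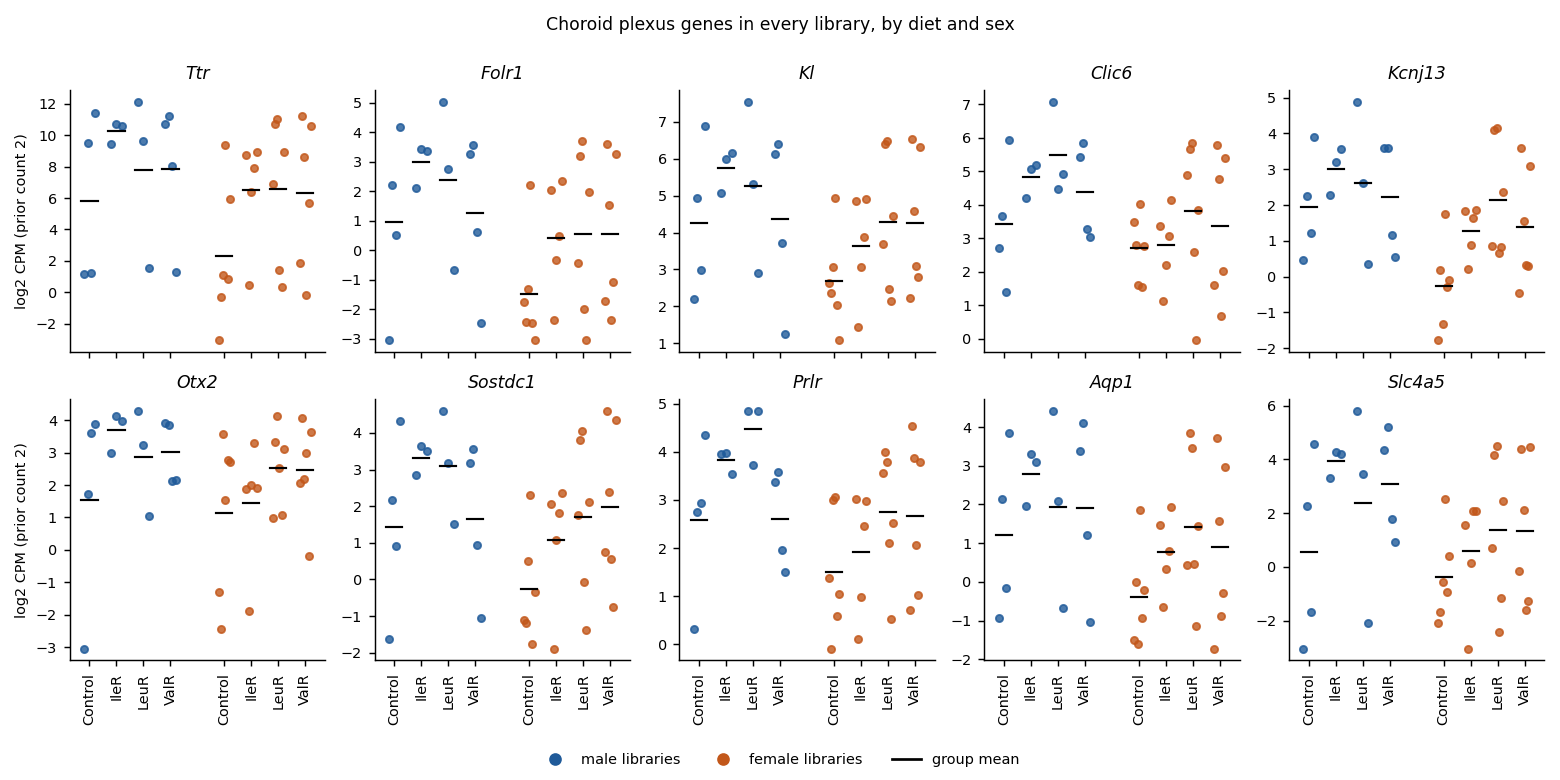
Level of each of the 10 genes in every library (log2 CPM, prior count 2; the scale differs between panels), by diet, with male libraries in blue, female libraries in orange and a black line at the mean of each group. Within a diet the libraries of a sex lie up to 12.42 log2 units apart for Ttr, in Control-fed females, and the points of each restricted diet overlap those of Control in every panel.

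Per kilobase of exon, Ttr was the highest of the 10 genes in both sexes, with a median of 639 CPM per kilobase in male and 69.5 in female libraries. The order of the other medians in males was Clic6 at 6.71, Sostdc1 at 4.48, Kcnj13 at 4.20, Kl at 3.91, Otx2 at 2.52, Folr1 at 2.42, Slc4a5 at 1.78, Aqp1 at 1.59 and Prlr at 0.759 CPM per kilobase. These neighbours in the order lay closer to each other than the libraries of a gene did. The exon length is the union of all annotated exons, which for Prlr is 15339 bases and lowers its value.

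Among the carriers and secreted proteins, Folr1 (ENSMUSG00000001827, chr7:101858331-101870788 of GRCm38, minus strand) encodes the folate receptor that moves folate into cerebrospinal fluid. It had at most 3 counts in 11 of 37 libraries and 32.4 CPM in male LeuR 19. Kl (ENSMUSG00000058488, chr5:150952607-150993817, plus strand) encodes klotho, the co-receptor of FGF23, which is also shed into the fluid. Kl was at 4.47, 30.5, 7.82 and 119 CPM in male Control 1, 3, 4 and 5, at 33.6, 63.8 and 71.4 in the IleR libraries, at 186, 39.4 and 7.38 in LeuR 19, 20 and 21, and at 69.9, 84.0, 13.1 and 2.24 in ValR 7, 9, 10 and 12. Kl thus kept a level above 2 CPM in the libraries where Ttr was nearly absent, and its lowest count in any library was 27. Sostdc1 (ENSMUSG00000036169, chr12:36314139-36318452, plus strand) encodes a secreted antagonist of bone morphogenetic protein and Wnt signals. It ranged from 0.200 CPM in male Control 1 to 24.3 in male LeuR 19, and from 0.149 to 23.9 CPM in females.

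Among the channels and transporters, Aqp1 (ENSMUSG00000004655, chr6:55336432-55348555, plus strand) encodes the water channel of the ventricular membrane. In males Aqp1 was at 0.400, 4.26, 0.776 and 14.3 CPM in Control 1, 3, 4 and 5, at 3.78, 9.74 and 8.38 in IleR, at 21.3, 4.10 and 0.4995 in LeuR 19, 20 and 21, and at 10.3, 17.2, 2.19 and 0.364 in ValR 7, 9, 10 and 12. The high and low libraries were those of Ttr. Slc4a5 (ENSMUSG00000068323, chr6:83219828-83304945, plus strand), a sodium bicarbonate cotransporter, ranged from 0 to 56.2 CPM in males and from 0 to 22.6 in females. Kcnj13 (ENSMUSG00000079436, chr1:87386363-87394729, minus strand) encodes the inward rectifier potassium channel Kir7.1, and ranged from 1.17 to 29.2 CPM in males and from 0.173 to 17.6 in females. Kcnj13 shares 623 exon bases with Gigyf2 on the opposite strand, and although the labels name a stranded kit, whether the counting used strand is not given in the sources used here. Clic6 (ENSMUSG00000022949, chr16:92485736-92541243, plus strand), a member of the intracellular chloride channel family, was at 6.41, 12.7, 2.52 and 61.5 CPM in male Control 1, 3, 4 and 5, at 18.4, 33.4 and 36.1 in IleR, at 134, 22.3 and 30.3 in LeuR 19, 20 and 21, and at 42.5, 57.8, 9.62 and 8.00 in ValR 7, 9, 10 and 12.

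Clic6 and Prlr departed from the other genes in the same 2 libraries. In male LeuR 21, where Ttr was at 2.78 CPM, Clic6 was at 30.3 and Prlr, the receptor of the hormone prolactin, at 28.8 CPM. The Prlr level of LeuR 21 was as high as that of LeuR 19, at 28.6 CPM, in which Ttr was at 4463. In female LeuR 43, where Ttr was at 119 CPM, Clic6 was at 29.6 and Prlr at 11.6 CPM. Over all male libraries Prlr was at 1.13, 6.59, 7.50 and 20.1 CPM in Control, 15.4, 15.5 and 11.5 in IleR, 28.6, 13.1 and 28.8 in LeuR, and 10.2, 11.8, 3.77 and 2.73 in ValR, each in the order of library number. Of the 3 LeuR values 2 lay above every Control value, and the third did not. Prlr (ENSMUSG00000005268, chr15:10177238-10349180, plus strand) shares 203 exon bases with Gm21973 on the same strand.

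Otx2 (ENSMUSG00000021848, chr14:48657677-48673819, minus strand) encodes a homeodomain transcription factor that the choroid plexus needs to form and to persist. In males Otx2 was at 0, 3.18, 12.1 and 14.6 CPM in Control 1, 3, 4 and 5, at 7.81, 17.2 and 15.7 in IleR, at 19.5, 9.20 and 1.94 in LeuR, and at 15.1, 14.3, 4.22 and 4.30 in ValR. Otx2 was high in 2 Control libraries with little Ttr, at 12.1 CPM in male Control 4 and 11.7 in female Control 27, whose Ttr was at 2.20 and 2.00 CPM. Otx2 shares exon bases with Otx2os1 on the opposite strand (154 bases) and with Gm49154 on the same strand (168 bases). The core motif of the OTX family, TAATCC or its reverse complement GGATTA, was looked for on both strands of the RefSeq promoter windows of GRCm38.p6, each 300 bases long. Windows were at hand for 6 of the 10 genes, Kl, Kcnj13, Otx2, Prlr, Aqp1 and Slc4a5, 11 windows in all. The motif was found in 1 window, of Otx2 itself, on chromosome 14 on the minus strand. Of all 32851 windows, 7.06% hold it. The stretch around the match, at chr14:48665303-48665332, is shown as the only motif among these genes, cut to 30 bases because it also lies in exons of other Otx2 transcripts. The motif is in capitals and its first base is 211 bases before the start of transcription of that window.
Otx2: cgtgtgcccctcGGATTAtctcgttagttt
A match of these letters is a description of the window and not a site of binding.

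Each restricted diet was set against Control to ask whether lowering 1 branched-chain amino acid changed the transcript levels of the brain. All 10 genes passed the filter on low counts in both sexes. In males, edgeR's quasi-likelihood test called 0 of the 10 genes in IleR, where 15.3% of the 22197 genes tested were called at an adjusted p under 0.05 (Benjamini-Hochberg). It called 0 of 10 in LeuR, against 10.1% of all genes, and 0 of 10 in ValR, against 23.5%. The 3398 genes called in IleR became 1847 and 1838 without IleR 14 and 17, and 2163 and 2212 without Control 1 and 3. The 2249 genes called in LeuR became 0 in a fit of only the groups compared and 543 without LeuR 19, and leaving out a Control library gave 860, 801, 3952 and 1289 for Control 1, 3, 4 and 5. With all male libraries, none of the 10 had an unadjusted edgeR p under 0.05, against 6577, 6003 and 7817 of all genes. DESeq2 and limma voom also called 0 of 10 in each diet, and each tool found 1 gene at an unadjusted p under 0.05, in LeuR. The libraries of each restricted diet overlapped those of Control for all 10 genes, while 29.4%, 18.2% and 26.8% of all genes did not overlap in IleR, LeuR and ValR. The 3 comparisons share the same Control libraries.

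The estimated differences in males were smaller than their errors for most genes. The log2 fold change of Ttr was 0.60 in IleR (SE 2.01, 95% interval -3.73 to 4.94), 0.98 in LeuR (SE 2.01, interval -3.35 to 5.31) and 0.32 in ValR (SE 1.88, interval -3.72 to 4.37). These rest on means of 864 ± 1286 CPM (SD, n = 4) in Control, 1308 ± 530.4 (n = 3) in IleR, 1751 ± 2381 (n = 3) in LeuR and 1093 ± 1156 (n = 4) in ValR. The SD was larger than the mean in 3 of these 4 groups. In IleR the log2 fold change of Ttr was 0.19 without Control 1, 2.39 without Control 5 and 4.41 with limma voom. Those of the other 9 genes in IleR lay between 0.078 and 0.74 without their lowest-giving Control library, which was Control 4 for Clic6 and Control 1 for the rest. Without Control 5 they lay between 1.45 and 3.21, and with limma voom between 1.05 and 3.86. Over the 10 genes the median log2 fold change was 0.59 in IleR, 1.02 in LeuR and 0.28 in ValR, beside medians of 0.04, 0.05 and 0.03 over all genes tested. The smallest adjusted p was that of Prlr in LeuR, at 0.187 in edgeR's test, with a log2 fold change of 1.39 (SE 0.65, interval -0.01 to 2.79) between means of 23.5 ± 9.02 CPM (SD, n = 3) and 8.84 ± 8.04 (n = 4). Clic6 in LeuR had a log2 fold change of 1.55 (SE 0.94) and an adjusted p of 0.313 in the same test.

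In ValR the sign of most values also turned on single libraries. The log2 fold change of Ttr there was -0.41 without ValR 9 and 2.11 without Control 5, and 9 of the 10 genes, all but Slc4a5, changed sign when some library was left out. One library set the sign of most LeuR values. Without LeuR 19 the log2 fold change of Ttr went from 0.98 to -1.16, that of Folr1 from 1.10 to -0.81, that of Kl from 0.90 to -0.83 and that of Aqp1 from 0.77 to -1.18, and the values of Kcnj13, Otx2, Sostdc1 and Slc4a5 were also below 0. Without Control 5 those of Ttr, Folr1 and Kl in LeuR were 2.77, 2.70 and 2.39. Clic6 and Prlr stayed above 0 whichever male library was left out, at 0.32 or more and at 1.03 or more. No call was made in any of these fits. The smallest adjusted p was 0.0571, for Prlr in LeuR without Control 5.

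In females, whose 3 comparisons also share their Control libraries, edgeR called 0 of the 10 genes in IleR, LeuR and ValR, and 0% of the 20344 genes tested were called in each of the 3. An unadjusted p under 0.05 was found for 0, 4 and 5 of the 10 genes, against 577, 820 and 777 of all genes. The 10 genes varied together across libraries, as described below, so these are not independent results. DESeq2 called 0 of 10 and found 0, 6 and 6 genes at this level, and limma voom called 0 of 10 and found 0, 1 and 0. The libraries of each restricted diet overlapped those of Control for all 10 genes, and 0.246%, 0.202% and 0.133% of all genes did not overlap in IleR, LeuR and ValR.

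The female values lay mostly above those of Control, with wide intervals. The median log2 fold change of the 10 genes was 0.91 in IleR, 2.33 in LeuR and 2.05 in ValR, beside medians of -0.01, 0.00 and -0.01 over all genes tested. The largest was that of Kcnj13 in LeuR, at 2.82 (SE 0.83, 95% interval 1.09 to 4.55), with an unadjusted p of 0.0028 and an adjusted p of 0.968 in edgeR's test. Its lowest, median and highest level were 0.173, 0.757 and 3.26 CPM in Control and 1.46, 3.33 and 17.6 CPM in LeuR. Of the 6 LeuR libraries 3 lay above every Control library. Sostdc1 in ValR had a log2 fold change of 2.77 (SE 1.04, interval 0.62 to 4.92), with an unadjusted p of 0.0140 and an adjusted p of 1.00. Its lowest, median and highest level were 0.174, 0.508 and 4.86 CPM in Control and 0.467, 3.32 and 23.9 in ValR. The log2 fold change of Ttr was 2.60 in LeuR (SE 1.85, interval -1.24 to 6.44) and 2.60 in ValR (SE 1.85, interval -1.24 to 6.43). Otx2 had the smallest edgeR values, at -0.14 in IleR, 0.70 in LeuR and 0.71 in ValR. With limma voom its values were 0.66, 1.69 and 1.60, above those of Clic6 and Prlr in each diet.

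The female estimates also turned on single libraries. Without Control 28 the log2 fold change of Ttr was 5.82 in LeuR and 5.81 in ValR, and without LeuR 45 or ValR 32 it was 1.92 and 1.70. With limma voom it was 4.74 in LeuR and 4.49 in ValR. In IleR it was 1.05 (SE 1.83, interval -2.75 to 4.85), and it was 0.65 without IleR 42, 4.26 without Control 28 and 4.68 with limma voom. That of Sostdc1 in ValR was 3.97 without Control 28 and 2.15 without ValR 32. That of Kcnj13 in LeuR was 3.63 without Control 28 and 2.33 without LeuR 45. In the 15 female libraries with under 500 CPM of cerebellum markers, a choice made after the data were seen, the log2 fold change of Ttr was 0.89 in IleR, 1.42 in LeuR and 2.09 in ValR, 0 of 10 genes were called, and none had an unadjusted p under 0.05. The smallest adjusted p in any female fit was 0.427, for Kcnj13 in LeuR with DESeq2.

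**Figure D2:**
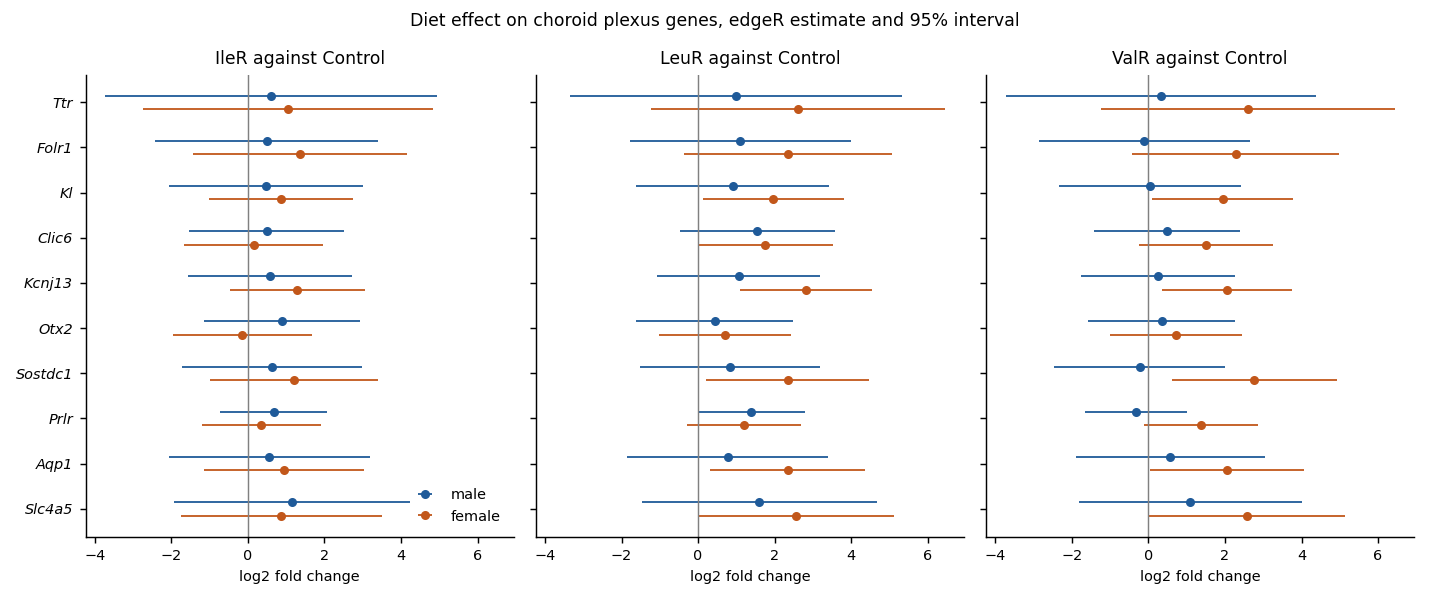
Log2 fold change of each of the 10 genes in each restricted diet against Control, with the 95% interval from edgeR, in blue for males and orange for females. The male intervals all include 0, with Prlr in LeuR nearest to excluding it at -0.01 to 2.79, and the female estimates in LeuR and ValR lie between 0.70 and 2.82.

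Whether the diet effect differed between the sexes was tested with an interaction term over all 37 libraries, coded as the male effect minus the female effect. The test called 0 of the 10 genes in IleR, LeuR and ValR, beside 0.0979%, 0.00445% and 4.25% of the 22465 genes tested. These shares, of 22, 1 and 955 genes, turned on the tool and on single libraries, with 1051, 316 and 2343 genes called by DESeq2, 0, 1 and 29 by limma voom, and 0 to 925, 1 to 598 and 191 to 2463 when 1 library was left out. None of the 10 had an unadjusted p under 0.05, against 4280, 2911 and 5835 of all genes, and DESeq2 and limma voom also called 0 of 10. The smallest adjusted p in edgeR's test was 0.224, for Sostdc1 in ValR, at -2.99 (SE 1.56, interval -6.18 to 0.20). In ValR the 10 values lay between -2.99 and -0.39. Without male Control 5 that of Sostdc1 was -1.34 and those of Clic6, Otx2 and Slc4a5 were above 0, at 0.53, 0.21 and 0.65. The last 3 were also above 0 with limma voom, at 0.045, 0.14 and 0.79. Without female Control 28 that of Ttr went from -2.26 to -5.51 and that of Sostdc1 to -4.20.

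The share of the variance of log2 CPM that lay between the 4 diets had a median over the 10 genes that was below that of all genes tested in males and above it in females. In males the share was 13.7% for Ttr, 7.89% for Kcnj13, 26.5% for Clic6 and 41.8% for Prlr, with a median of 15.8% over the 10 genes and of 40.8% over all genes tested. In females it was 17.0% for Ttr and 33.3% for Kcnj13, with a median of 15.6% over the 10 genes and of 10.66% over all genes tested. The share was not corrected for the numbers of diets and libraries. It therefore lies above 0 without a diet effect, more so with fewer libraries, and cannot be compared between the sexes. The SD of log2 CPM within a diet had a median of 2.03 over the 10 genes and 0.34 over all genes in males, and of 1.81 and 0.35 in females. By the SD over all libraries of a sex, Ttr was the gene of rank 7 among 22197 in males and of rank 4 among 20344 in females. Slc4a5 ranked 44 in males and 49 in females, and Folr1 97 and 48.

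The 10 genes varied together from library to library. Over the 14 male libraries, with the mean of each diet removed, the 45 pairs of genes had a median Pearson r of 0.86, from 0.44 for Clic6 and Otx2 to 0.995 for Kl and Aqp1. Over the 23 female libraries the median was 0.86, from 0.29 for Clic6 and Otx2 to 0.97 for Folr1 and Kl. With Ttr, Aqp1 had an r of 0.96 in males (Spearman's rho 0.97) and 0.88 in females (rho 0.89), and Slc4a5 had 0.95 and 0.93. Prlr had 0.58 (rho 0.58) in males and 0.75 (rho 0.74) in females, and Otx2 0.60 (rho 0.68) and 0.54 (rho 0.48). Without the 2 libraries farthest from the median of Ttr, male Control 1 and 4, the male r of Otx2 with Ttr was 0.87, and that of Prlr was 0.57. These are descriptions: the points share library, depth and scaling. The male libraries fall into 4 with under 10 CPM of Ttr and 10 with more than 200. Within those 10, with no group mean removed, the median r of the 45 pairs was 0.94, from 0.73 for Prlr and Aqp1 to 0.99 for Folr1 and Kl, and within the 10 female libraries above 200 CPM it was 0.91, from 0.46 for Otx2 and Prlr to 0.98 for Ttr and Kl.

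**Figure D3:**
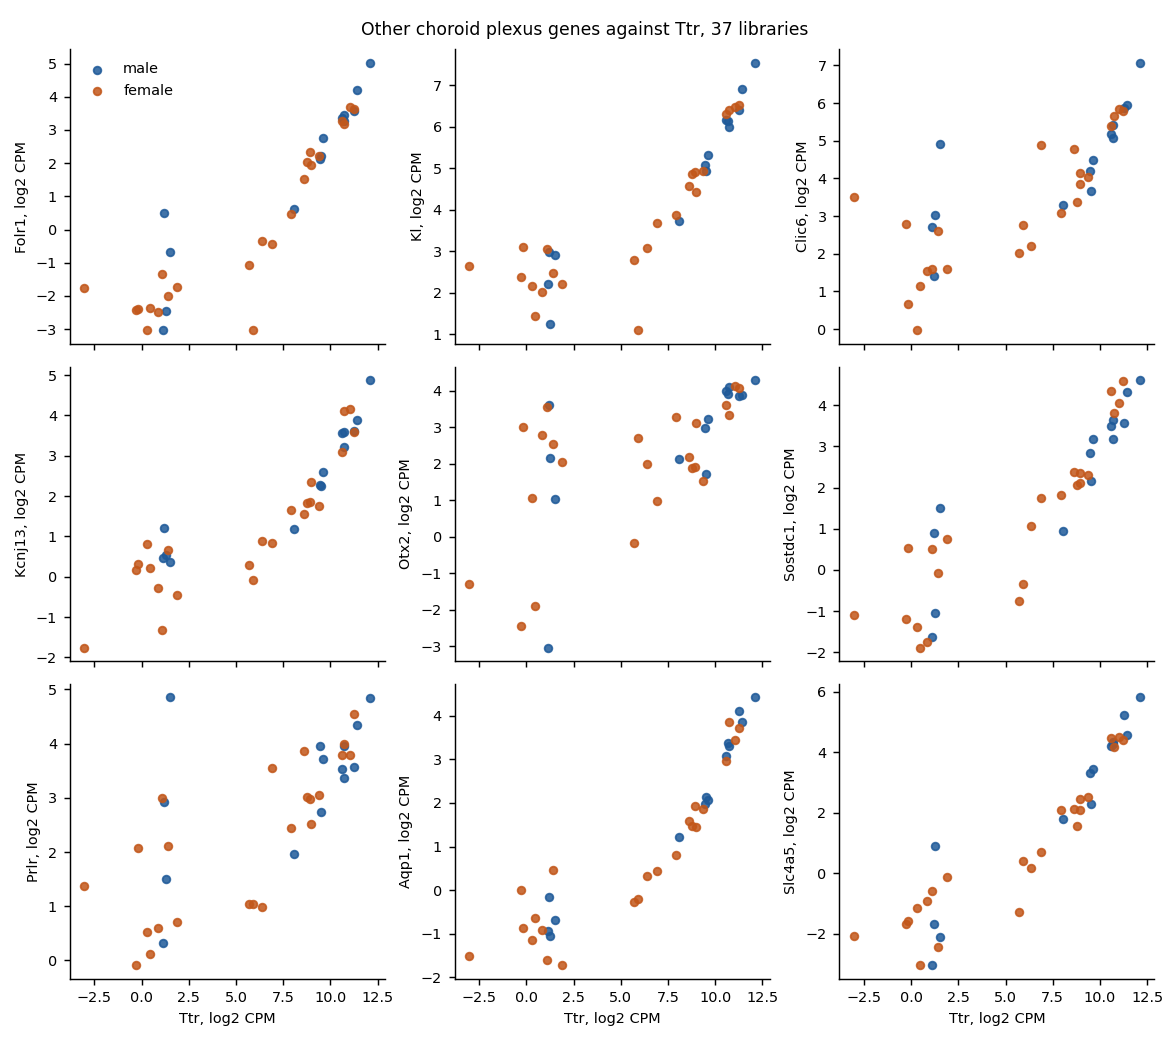
Level of each of the 9 other genes against that of Ttr in the 37 libraries (log2 CPM on both axes, male in blue, female in orange). Folr1, Kl, Kcnj13, Aqp1 and Slc4a5 lie along a band where Ttr is high and are flat where it is low, while Otx2 and Prlr also have high points at low Ttr, such as the Prlr level of 28.8 CPM in male LeuR 21.

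The genes outside the list with the pattern most like the mean log2 level of the 10 were found by Pearson's r, among genes whose log2 CPM averaged 1 or more. Of 13960 such genes in males, the 10 with the highest r over 14 libraries were F5, which encodes coagulation factor V, at 0.99, the tight junction gene Cldn2 at 0.99, Tmem72 at 0.97, the cation channel Trpv4 at 0.97, Wdr86 at 0.96, the potassium channel subunit Kcne2 at 0.96, Mfrp at 0.96, 1500015O10Rik (Ecrg4) at 0.96, Enpp2, which encodes autotaxin, at 0.95 and the transcription factor Msx1 at 0.95. Of 13890 genes in females, the 10 with the highest r over 23 libraries were Mfrp at 0.98, Tmem72 at 0.97, F5 at 0.96, 1500015O10Rik at 0.96, Lbp at 0.95, the cilium gene Drc7 at 0.94, the sugar transporter Slc2a12 at 0.93, Enpp2 at 0.91, Col9a3 at 0.90 and Flnc at 0.89. The lists shared 5 genes, 50% of each. Cldn2, Wdr86 and Kcne2 averaged under 1 in females, were not ranked there, and so could not be shared. Enpp2 had the highest level of these, between 206 and 2552 CPM in male and between 152 and 1132 in female libraries.

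Of 37 other genes known in choroid plexus epithelium from general knowledge, in 5 lists by function, 3 passed the test, all in males. Of 7 genes of ion and water transport, Slc12a2, the sodium-potassium-chloride cotransporter, was called in males: it rose in IleR by a log2 fold change of 0.90 (SE 0.27, adjusted p = 0.0381 in edgeR's test) and in ValR by 0.88 (SE 0.25, adjusted p = 0.0221). In LeuR its log2 fold change was 0.74, with an adjusted p of 0.0969. Of 7 solute carriers, Slc29a4, a carrier of monoamines, rose in all 3 male comparisons, from a mean of 14.0 CPM in Control to 36.3 in IleR, 37.5 in LeuR and 38.3 in ValR. Its log2 fold changes were 1.39, 1.41 and 1.48, with adjusted p-values of 0.00189, 0.00503 and 0.000417. Of 4 transcription factors, Rfx3, a regulator of cilium genes, fell in all 3, by 0.63, 0.83 and 0.76 on the log2 scale, from a mean of 43.7 CPM in Control to 28.2, 24.9 and 25.4. All 3 genes are also expressed by other brain cells. Rfx3 had its lowest level of all libraries, 18.7 CPM, in male LeuR 19, where Ttr was at 4463 CPM. Over 20 alternatives each, Slc29a4 stayed called in IleR and ValR in all, and in LeuR in all but the fit of only the groups compared, at an adjusted p of 0.0798. Rfx3 stayed called in ValR in all, in LeuR in 18 (adjusted p up to 0.101) and in IleR in 15 (up to 0.117). Slc12a2 stayed called in ValR in 17 (adjusted p up to 0.0692) and in IleR in 11 (up to 0.123). In LeuR the call of Rfx3 was lost without LeuR 19. The calls of Slc12a2 in both diets were lost without Control 1 or 3, and so was that of Rfx3 in IleR. Slc12a2 in IleR was also lost without any 1 of the 3 IleR libraries, LeuR 20 or ValR 7, 10 or 12, Slc12a2 in ValR without ValR 12, and Rfx3 in IleR without any 1 of the IleR libraries. The markers of forebrain and cerebellum described below differed between the same groups, and their part in these results was not tested.

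None of the 8 genes of secreted proteins and none of the 11 of epithelial structure and barrier was called in any male comparison. Among the secreted proteins with the highest levels were Enpp2, Igf2 and Vegfa, and among the structural genes Ace, Tmem72 and Mfrp. Over the 37 genes, 2 were called higher and 1 lower in IleR, 1 and 1 in LeuR, and 2 and 1 in ValR, where 15.3%, 10.1% and 23.5% of all genes tested were called, so the calls were no more frequent than over all genes. The median log2 fold change of the 37 was 0.46, 0.93 and 0.28. In females 35 of the 37 passed the filter and edgeR called 0 in each diet. An unadjusted p under 0.05 was found for 1, 18 and 19 of the 35, against 2.84%, 4.03% and 3.82% of all genes tested, with median log2 fold changes of 0.40, 1.06 and 1.38. The levels of these lists moved with that of the 10 genes across female libraries, at r between 0.88 and 0.97. These genes are therefore not independent results. The smallest unadjusted p was that of the tight junction gene Cldn1 in ValR, at 0.00176 with an adjusted p of 1.00 and a log2 fold change of 1.38 (SE 0.39).

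The mean levels of the 5 choroid plexus lists moved with the level of the 10 genes across libraries, at r between 0.91 and 0.995 in males and between 0.88 and 0.97 in females. Not every gene of the lists did so. Rfx3 was lowest in male LeuR 19, which ranked 1 among males by the level of the 10 genes. Slc22a8 was highest in female ValR 34, of rank 18 among females, and Vegfa in male ValR 10, of rank 10 among males. Markers of ependyma, the ciliated lining of the ventricles, moved with it less tightly in males, at r = 0.64 (rho 0.64, 14 libraries), than in females, at r = 0.87 (rho 0.86, 23 libraries), a difference that was not tested. The summed level of the 10 ependyma markers ranged from 5.67 to 77.2 CPM in males and from 9.05 to 75.6 in females. In ValR-fed females edgeR called 0 of the 10 ependyma markers and 0 of the 9 markers of meninges and stroma. An unadjusted p under 0.05 was found there for 7 and 6 of them, against 3.82% of all genes, with median log2 fold changes of 1.42 and 0.77. Their part in the values of the 10 genes was not tested. Across libraries, with the mean of each diet removed, markers of meninges and stroma had an r of -0.08 in males and -0.10 in females, and endothelium markers 0.51 and 0.27. Liver markers had an r of 0.57 and 0.53, and pineal and subcommissural organ markers 0.14 and 0.34.

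The markers of brain regions differed by diet in males. All 8 cerebellum markers were called higher in each male comparison, and 8, 4 and 8 of the 8 forebrain markers were called lower in IleR, LeuR and ValR, where 15.3%, 10.1% and 23.5% of all genes were called. Of 8 markers of brainstem and spinal cord, 4, 5 and 6 were called higher. None of the LeuR calls held in a fit of only the groups compared, where 0 of all genes were called. Without LeuR 19, 543 of all genes were called in LeuR. In females all 8 markers of forebrain, all 8 of cerebellum and 2 of the 8 of brainstem and spinal cord, Slc6a5 and Tph2, passed the filter on low counts, and edgeR called none of these. An unadjusted p under 0.05 was found in each female comparison for 0 of the forebrain, 0 of the cerebellum and 1 of the brainstem markers. That marker was Tph2, at log2 fold changes of -2.80, -2.88 and -3.74 in IleR, LeuR and ValR, whereas those of Slc6a5 were -0.43, 1.51 and 1.35. With the mean of each diet removed, the r of the level of the 10 genes with that of the forebrain list was -0.35 in males and -0.37 in females, with the cerebellum list 0.23 and 0.22, and with the brainstem and spinal cord list 0.56 and 0.28. The part of these regions in the levels of the 10 genes was not tested.

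**Figure D4:**
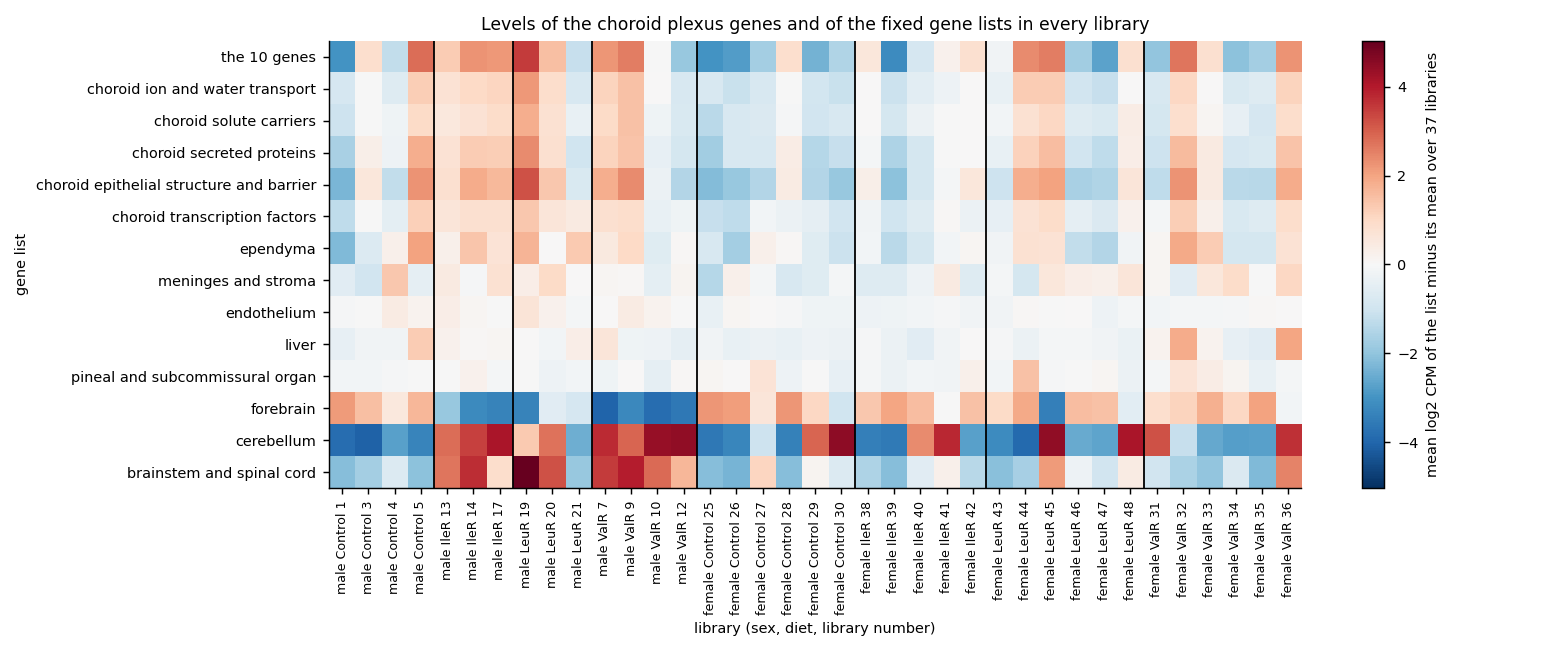
Mean log2 CPM of the 10 genes and of each gene list in every library, as the difference from its mean over the 37 libraries (red above, blue below), with black lines between groups. The 5 choroid plexus lists follow the top row from library to library in both sexes, whereas the cerebellum row is higher and the forebrain row lower in every restricted male library than in the male Control libraries.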

How the data were processed

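RNA-seq libraries from brains of 3xTg mice were compared by diet within each sex. The authors deposited expected counts per Ensembl gene and library, aligned to GRCm38 and not normalized; the aligner and the strand setting are not given in the sources used here, and the labels describe both polyA and total RNA libraries. In each library 3.69% to 4.93% of values were fractional, and counts were rounded to whole numbers. Tables of the authors' own log2 fold changes and p-values, made with limma, were not used. Per the labels, R 3.4.3, edgeR and limma were used upstream. The authors removed clear outliers after principal component analysis. Libraries were grouped by the diet and sex in their labels, and nothing ties them to litters or days, so p-values measure the spread between these libraries.

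A gene was kept where all libraries of some diet group had 1 count or more (22197 in males, 20344 in females, 22465 together). For each sex, 1 model over the 4 diets was fitted with edgeR 4.0.16 in R 4.3.3 (TMM, quasi-likelihood test, Benjamini-Hochberg over all genes, threshold 0.05). The 95% interval was taken from the test statistic. Alternatives were DESeq2 1.42.0, limma 3.58.1 with voom, other normalization, filters and sample sets, and leaving out each library. Tables were handled in Python 3.11.15 with pandas 2.3.3 and numpy 2.4.6. Gene positions and lengths came from GENCODE M21 of the same build. The 10 genes and the gene lists were chosen with earlier results of these data known. The text names the 10 genes, list genes that passed the threshold or had the highest mean levels, and the 10 genes per sex most like the mean of the 10. The position of Ttr is not reported here. Sex labels matched the data in all libraries.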

Additional observations from a re-analysis of the deposited data

Results flagged for a closer look

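Each group of 4 or more libraries was searched, gene by gene, for a highest or lowest library that stood apart from the rest on the log2 CPM scale (Dixon's test at the 95% level). Of 60 groups of values 2 were found, where chance gives about 1 in 20. Folr1 in female Control 28 stood above the others, with a gap of 0.674 of the range of the group: 4.49 CPM against 0 to 0.275 CPM in the other 5 Control libraries. The same library had the highest Ttr of that group. Otx2 in female IleR 39 stood below the others, with a gap of 0.730 of the range: 0.149 CPM against 3.58 to 9.62 CPM in the other 4 IleR libraries.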

How the results depend on the processing

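None of the 10 genes was called in any of the 9 comparisons under any alternative: DESeq2 size factors, no filter on low counts, filterByExpr, DESeq2, limma voom, only the groups compared, each of 37 libraries left out in turn, and, chosen after the data were seen, the female libraries poor in cerebellum markers. The alternatives of Slc12a2, Slc29a4 and Rfx3 were also chosen after the data were seen. No paired analysis was possible because library numbers are not repeated between diets. The median r between the 10 genes with a prior count of 0.5 was 0.85 in males and 0.84 in females, against 0.86 and 0.86, and all 80 mean levels moved by less than 1 SD without TMM. Depth limits Folr1 most, with at most 3 counts in 11 libraries. With a library left out, the log2 fold change changed sign for some genes, none of them called in either fit, with these lowest and highest values. In male LeuR against Control they were -1.16 to 2.77 for Ttr, -0.81 to 2.70 for Folr1, -0.83 to 2.39 for Kl, -0.74 to 2.12 for Kcnj13, -0.46 to 1.00 for Otx2, -0.22 to 2.44 for Sostdc1, -1.18 to 2.19 for Aqp1 and -0.48 to 3.67 for Slc4a5. In male ValR against Control they were -0.41 to 2.11 for Ttr, -0.73 to 1.496 for Folr1, -0.51 to 1.53 for Kl, -0.049 to 2.00 for Clic6, -0.17 to 1.30 for Kcnj13, -0.061 to 0.91 for Otx2, -0.84 to 1.39 for Sostdc1, -0.68 to 0.48 for Prlr and -0.22 to 1.99 for Aqp1. In female IleR against Control they were -0.30 to 0.51 for Clic6 and -0.71 to 0.37 for Otx2. In the diet by sex term of IleR they were -3.69 to 1.39 for Ttr, -3.69 to 0.75 for Folr1, -1.27 to 1.11 for Kl, -0.011 to 1.87 for Clic6, -1.53 to 0.36 for Kcnj13, -1.78 to 1.06 for Sostdc1, -0.070 to 1.12 for Prlr, -1.41 to 1.05 for Aqp1 and -1.23 to 2.37 for Slc4a5. In the diet by sex term of LeuR they were -4.82 to 0.24 for Ttr, -4.02 to 0.40 for Folr1, -2.77 to 0.46 for Kl, -1.42 to 1.34 for Clic6, -1.15 to 0.29 for Otx2, -2.67 to 0.14 for Sostdc1, -0.18 to 1.00 for Prlr and -2.99 to 1.16 for Slc4a5. In the diet by sex term of ValR they were -1.52 to 0.53 for Clic6, -0.86 to 0.21 for Otx2 and -2.96 to 0.65 for Slc4a5. limma voom gave the other sign, again with no call, for Folr1 in male ValR (0.29), Kl in male ValR (-0.014), Sostdc1 in male ValR (0.10), Otx2 in female IleR (0.66), Kl in the diet by sex term of IleR (0.38), Sostdc1 in the diet by sex term of IleR (0.31), Aqp1 in the diet by sex term of IleR (0.22), Clic6 in the diet by sex term of LeuR (1.07), Otx2 in the diet by sex term of LeuR (0.0083), Slc4a5 in the diet by sex term of LeuR (0.37), Clic6 in the diet by sex term of ValR (0.045), Otx2 in the diet by sex term of ValR (0.14) and Slc4a5 in the diet by sex term of ValR (0.79). Counts over all genes moved more. In male LeuR 2249 genes were called, 3611 with DESeq2 and 0 with only the groups compared; in female IleR and LeuR DESeq2 called 8 and 1 and limma voom 1 and 0 where edgeR called 0. The diet by sex term called 22 genes in IleR, 1 in LeuR and 955 in ValR, against 1051, 316 and 2343 with DESeq2, 0, 1 and 29 with limma voom, and 316, 0 and 1675 with only the groups compared; IleR had 50 with DESeq2 size factors, 14 with no filter and 63 with filterByExpr, and ValR 587 with no filter. With a library left out the counts ran from 1838 to 4357 in male IleR, 543 to 3952 in LeuR and 3843 to 5990 in ValR, from 0 to 5 in female IleR, and from 0 to 925, 1 to 598 and 191 to 2463 in the diet by sex term of IleR, LeuR and ValR. The cause of these differences was not tested.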
